A study of Mus musculus with 2 samples.

Results

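The nuclear genes of oxidative phosphorylation were taken from the 8551 genes of the deposited table by their symbols. Symbols beginning with Nduf were assigned to complex I, Sdha to Sdhd to complex II, symbols beginning with Uqcr and Cyc1 to complex III, symbols beginning with Cox4 to Cox8 to complex IV and symbols beginning with Atp5 to complex V. This gave 53 genes of 8551, namely 25 of complex I, 3 of complex II, 7 of complex III, 8 of complex IV and 10 of complex V. The symbols do not select structural subunits alone. Ndufaf1 and Ndufaf3 are assembly factors, and Atp5s and Atp5sl carry the current symbols Dmac2l and Dmac2. Cox4nb carries the current symbol Emc8 and belongs to another protein complex. Thus 48 of the 53 genes were counted as structural subunits, Cox7a2l among them.

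The 5 complexes sit in the inner mitochondrial membrane. Complexes I and II pass electrons from NADH and succinate to ubiquinone, complex III passes them to cytochrome c and complex IV to oxygen, and the protons pumped by complexes I, III and IV drive ATP synthesis by complex V. Hepatocytes are rich in mitochondria and depend on this chain to burn fatty acids. Most subunits are encoded in the nucleus, and the subunits encoded in mitochondrial DNA were not analysed here.

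The series holds 1 liver library of male C57BL/6 wild type mice (normal) and 1 of male db/db mice on a C57BL/6 background, labelled type 2 diabetic (diabetic), all 9 weeks old and killed about 3 h into the light phase. In db/db mice the leptin receptor gene is mutated in every tissue. The mice came from suppliers in Shanghai and Nanjing, and which group came from which is not stated. Several mice were kept per group, but whether the RNA of a library was pooled is not stated. Poly(A) RNA was read as digital gene expression tags, short reads that start at a DpnII site of the cDNA. With 1 library per group no difference below has a replicate check, and no test between the conditions was possible. The 95% intervals given are Clopper-Pearson intervals that cover counting error only, since the reads carry no molecular identifiers and several can stem from 1 molecule.

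Values are in TPM, which here means the tags of a gene per 1000000 clean tags. The steps of the values gave about 10278530 clean tags in the normal and 13508232 in the diabetic library, of which 3809707 and 5993204 fell on the listed genes. A gene was called higher or lower at 1.5-fold of the deposited values. This rule called 34.4% of the whole table higher in the diabetic library and 15.3% lower, around a median log2 ratio of 0.25. Each of 4 other scalings between the libraries lowered every log2 ratio by 0.25 to 0.31, so values are also given after TMM scaling, which centred the median of all listed genes at 0.00 and called 24% of them higher and 23.6% lower. Markers of other liver cells did not move in 1 direction. Of 5 listed hepatocyte markers 1 was higher and 1 lower (summed level 28437 TPM in the normal and 18160 TPM in the diabetic library), of 6 Kupffer cell markers 1 was higher and 3 lower (314 and 186 TPM), of 5 sinusoidal endothelial markers 2 were higher and 1 lower (94.1 and 86.2 TPM), and of 5 stellate cell markers 1 was higher and 1 lower (107 and 149 TPM). The 2 of 4 cholangiocyte markers listed summed to 4.28 and 4.22 TPM, Alas2 was the 1 of 3 erythroid markers listed (51.9 and 44.2 TPM), and no adipocyte or muscle marker was listed. Fewer cells of a type and less RNA per cell cannot be told apart in whole liver, and the part of cell composition in the results was not tested.

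DpnII cuts at GATC, and the site nearest to the poly(A) tail of a transcript defines its tag. The last site of the longest RefSeq-matched transcript (GENCODE vM21, GRCm38) was therefore located for the 53 genes. It lay in the 3' untranslated region in 26 genes, in the coding sequence in 24 and across the stop codon in 3. A tag of 20 bases was complete in 49 genes, and in Atp5b, Ndufs7, Ndufs8 and Uqcrh the site was too near the transcript end to hold it. The tags of the genes at the 2 ends of the changes described below are printed first, because they show which stretch of the mRNA each value counts. Capitals mark the DpnII site, sequences run 5' to 3' on the strand of the gene, and the positions are own matches to GRCm38, since the deposited values carry no coordinates.
Ndufs1, coding sequence, chr1:63147372-63147391, minus strand: GATCaagtaaggaaccgtct
Sdha, 3' untranslated region, chr13:74322945-74322964, minus strand: GATCaacagcttggtagtac
Uqcrfs1, coding sequence, chr13:30540793-30540812, minus strand: GATCaggaagggccctgcac
Cox4i1, coding sequence, chr8:120673997-120674016, plus strand: GATCgtgactgggtggccat
Atp5d, coding sequence, chr10:80145500-80145519, plus strand: GATCcgtattgaggccaatg
Ndufa4, coding sequence, chr6:11907335-11907354, minus strand: GATCctcgggcaagccaaga
Cyc1, 3' untranslated region, chr15:76345887-76345906, plus strand: GATCttccttcagccctcag
Cox6a1, 3' untranslated region, chr5:115345692-115345711, minus strand: GATCttccatcccttctgct
Atp5f1, 3' untranslated region, chr3:105942793-105942812, minus strand: GATCataatttgaataagca
The first 5 belong to genes at least 2-fold higher in the diabetic library and the last 4 to genes below their normal level. None of these 9 tags was found at a DpnII site of a transcript of another gene.

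In the diabetic library 32 of the 53 genes (60.4%) were past 1.5-fold upwards and 3 downwards, beside 34.4% and 15.3% of the whole table, and 18 lay in between. The 3 lower genes were Atp5g1, Ndufab1 and Atp5f1. The median log2 ratio was 0.71 (TMM 0.46), against 0.25 over all listed genes and 0.31 over those with a mean of at least 10 TPM. An exact binomial test of the reads, which speaks of the 2 libraries only, left 32 higher genes and 1 lower gene at an FDR under 0.001 (22.9% and 8.19% of the whole table). After TMM scaling 21 genes were higher and 7 lower, beside the 24% and 23.6% given above. The 4 genes that joined the lower side were Uqcrh, Atp5sl, Ndufa4l2 and Cox4nb. The summed level of the 53 genes was 10930 TPM in the normal and 16028.5 TPM in the diabetic library (log2 ratio 0.55, 0.54 to 0.56). Their share of all reads on listed genes was 2.95% in the normal and 3.61% in the diabetic library.

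**Figure D1:**
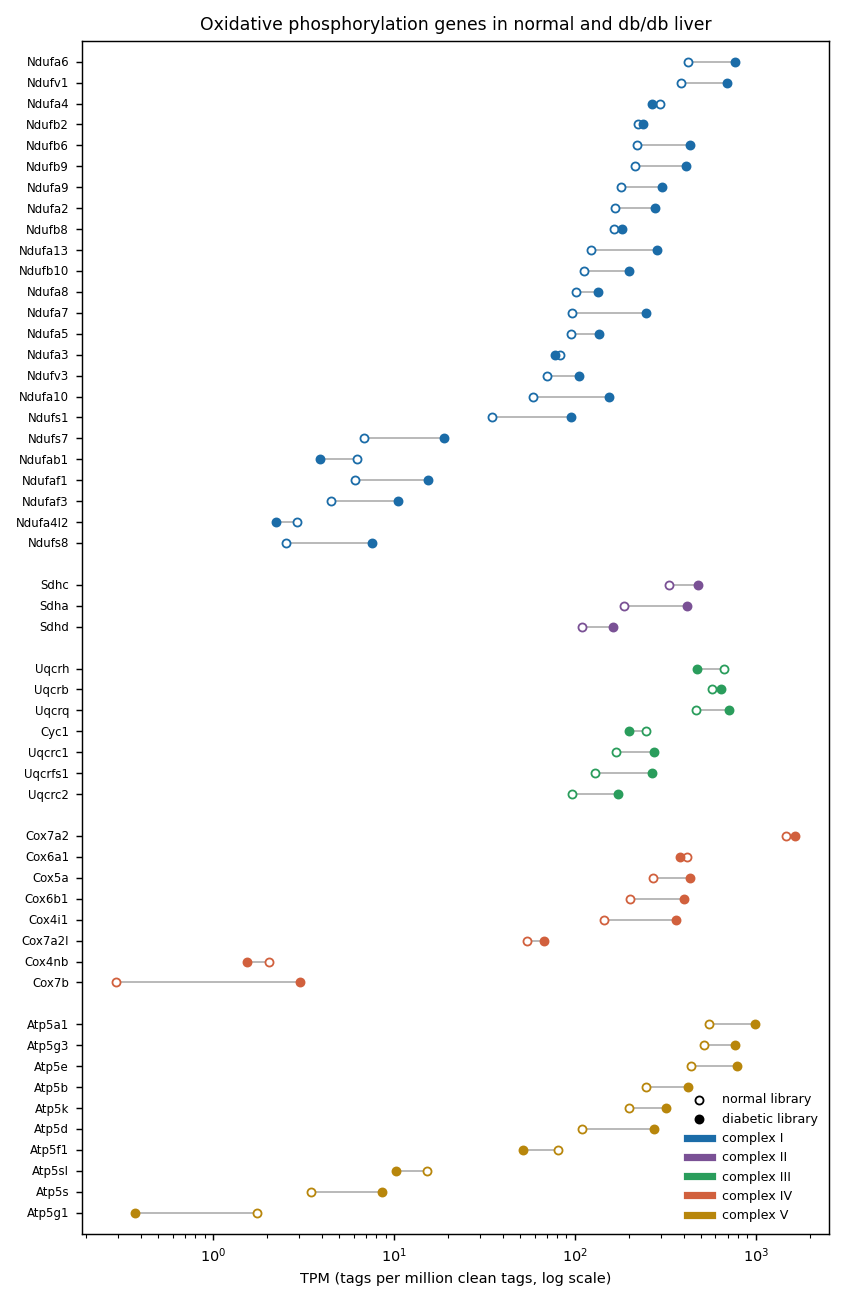
Level of 52 of the 53 genes in the normal (open circle) and diabetic library (filled circle), in TPM on a log scale, grouped by complex and ordered by the normal level. Most filled circles lie to the right of their open circle, and Cox7a2 stands highest in both libraries.

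Levels ranged from 0.29 to 1478 TPM in the normal library. Since each transcript is read at 1 site, a tag count does not grow with transcript length, although it depends on where the site lies. Cox7a2, a small subunit of complex IV, was the most abundant, at 1478 TPM in the normal and 1660 TPM in the diabetic library. The order of the genes was similar in both libraries (Spearman's rho 0.95 over 53 genes of the same 2 libraries, as a description), and abundance and log2 ratio were nearly unrelated (rho -0.03). The higher calls were thus spread over abundant and rare transcripts.

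Complex I oxidises NADH and is built from a catalytic core and a shell of accessory subunits. Of its 25 genes 17 were higher and 1 was lower, with a median log2 ratio of 0.82 (TMM 0.57), and the summed level was 3204 TPM in the normal and 5271 TPM in the diabetic library (log2 ratio 0.72, 0.70 to 0.74). All 5 listed core subunits were higher, with a median log2 ratio of 1.46, and 4 of the 5 after TMM scaling. Of the 18 accessory subunits 10 were higher and 1 was lower, with a median of 0.67. The core median includes Ndufs7 and Ndufs8, whose tags are incomplete. By summed level the log2 ratio was 0.88 (0.83 to 0.92) for the core and 0.68 (0.66 to 0.70) for the accessory subunits. The 2 classes thus lay closer by the sum than by the median. After TMM scaling 12 of the 25 genes were higher and 2 lower.

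Among the core subunits, Ndufs1, the iron-sulfur subunit at the entry of the peripheral arm, measured 34.9 TPM in the normal and 95.9 TPM in the diabetic library, 2.74-fold higher (log2 1.46, 1.29 to 1.63). Ndufs7 and Ndufs8, which hold the iron-sulfur clusters that lead to the quinone site, were rarer. Ndufs7 measured 6.81 and 19.0 TPM (log2 1.48, 1.10 to 1.88), and Ndufs8 measured 2.53 and 7.62 TPM, from 26 and 103 reads (log2 1.59, 0.96 to 2.27). Both genes have their last DpnII site too near the transcript end for a complete tag, so their level is not comparable with that of the other core subunits. Ndufv1, the flavoprotein that binds NADH, was the most abundant core subunit, with 385 and 694 TPM (log2 0.85, 0.80 to 0.90). The intervals of Ndufs1 and Ndufv1 did not overlap, so within these libraries the core subunits differed in ratio by more than the counting error.

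The accessory subunits varied more. Ndufa6, which binds the matrix side of the complex, was the most abundant, with 424 TPM in the normal and 772 TPM in the diabetic library (log2 0.87, 0.81 to 0.92). Ndufa10, Ndufa7 and Ndufa13 had the highest ratios, with 59.2 and 156 TPM (log2 1.39), 96.4 and 248 TPM (log2 1.36), and 124 and 285 TPM (log2 1.21). Ndufa13 is also known as GRIM-19, and its tag occurs in the transcript Gm12389 too, so reads of the pair cannot be separated. In the membrane arm 3 of 5 Ndufb subunits were higher. Ndufb6 (222 and 432 TPM, log2 0.96) and Ndufb9 (215 and 413 TPM, log2 0.94) stood at one end. Ndufb2 (225 and 239 TPM, log2 0.09) and Ndufb8 (165 and 182 TPM, log2 0.14) stood at the other, both under 0 after TMM scaling, and the tag of Ndufb2 also occurs in Gm13186.

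Ndufa3 and Ndufa4 were at their normal level or slightly under it. Ndufa3 measured 83.4 and 78.0 TPM (log2 -0.10, -0.23 to 0.03), and its interval includes 0. Ndufa4 measured 295 TPM in the normal and 268 TPM in the diabetic library (log2 -0.14, -0.21 to -0.06). Ndufa4 was first described with complex I and is now counted as a subunit of complex IV. Its paralog Ndufa4l2, known as a gene induced by hypoxia, was rare, with 30 reads in each library (2.92 and 2.22 TPM). Ndufaf1 and Ndufaf3, which assemble the complex, were both higher, with 6.13 and 15.4 TPM (log2 1.33) and 4.48 and 10.6 TPM (log2 1.24).

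Ndufab1, the mitochondrial acyl carrier protein, was the only complex I gene called lower, with 6.23 TPM in the normal and 3.92 TPM in the diabetic library, from 64 and 53 reads (log2 -0.67, -1.22 to -0.12). It is counted as uncertain, because its transcripts end with different tags. The longest transcript has the first tag below and a shorter one of 552 bases the second, which crosses an exon junction.
Ndufab1, longest transcript, 3' untranslated region, chr7:122085844-122085863, minus strand: GATCtcagctattcacagag
Ndufab1, shorter transcript, coding sequence, exon parts within chr7:122093697-122096620, minus strand: GATCcagaaaagctctccgt
A further transcript of 755 bases ends with a tag that occurs in 13 other genes. The second tag above also occurs in the pseudogene transcripts Gm4459 and Ndufab1-ps. Gm4459 is listed with 77.4 TPM in the normal and 140 TPM in the diabetic library (log2 0.86, 0.74 to 0.98). The row of Ndufab1 was therefore lower while a row that shares its tag was higher and far more abundant, and how the reads of shared tags were assigned is not given in the sources used here.

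**Figure D2:**
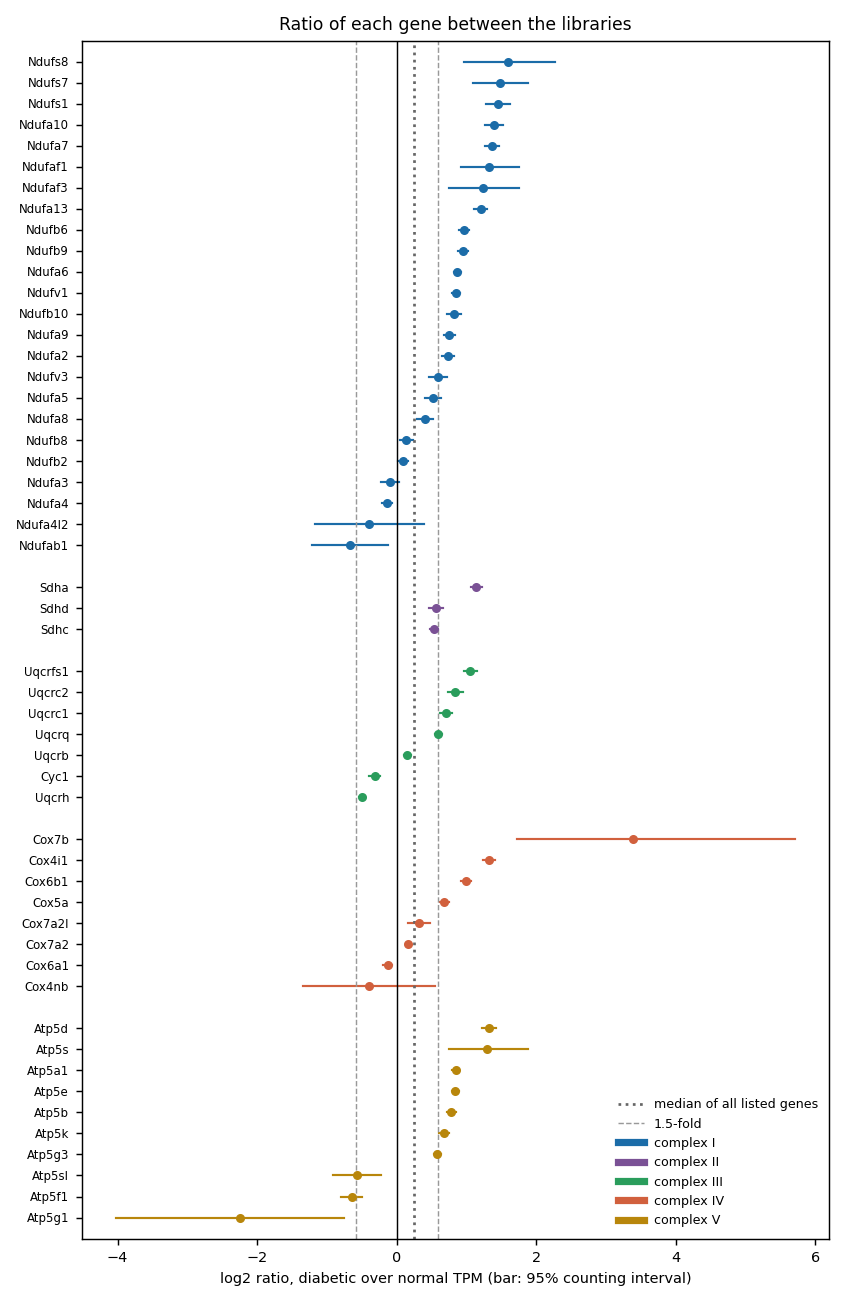
log2 ratio of the diabetic over the normal TPM for 52 of the 53 genes, ordered within each complex, with 95% counting intervals as bars. Dashed lines mark 1.5-fold, the dotted line the median of all listed genes (0.25), and only Atp5g1, Ndufab1 and Atp5f1 lie to the left of the lower dashed line.

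Complex II, succinate dehydrogenase, links the TCA cycle with the chain and was represented by 3 genes. Sdha, the catalytic flavoprotein, measured 188 TPM in the normal and 415 TPM in the diabetic library (log2 1.14, 1.07 to 1.22). The membrane anchors Sdhc and Sdhd stayed under 1.5-fold. Sdhc measured 334 and 482 TPM (log2 0.53, 0.47 to 0.59), and Sdhd 110 and 162 TPM (log2 0.56, 0.46 to 0.67). The intervals of the 2 anchors overlapped each other and neither reached that of Sdha.

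Complex III moves electrons from ubiquinol to cytochrome c. Of its 7 genes 4 were higher and none was lower, with a median log2 ratio of 0.60 (TMM 0.35). After TMM scaling 1 was higher and 1 lower, beside 24% and 23.6% of all listed genes. Uqcrfs1, the Rieske iron-sulfur protein, measured 129 and 269 TPM (log2 1.06, 0.97 to 1.15). The core proteins Uqcrc2 and Uqcrc1 measured 96.9 and 173 TPM (log2 0.84), and 168 and 275 TPM (log2 0.71). Uqcrq, a small subunit, was just past the line with 470 and 712 TPM (1.51-fold, log2 0.60). The other subunits went differently. Uqcrb measured 577 and 641 TPM (log2 0.15, 0.11 to 0.20, and -0.10 after TMM scaling). Cyc1, the cytochrome c1 subunit that hands electrons to cytochrome c, measured 249 TPM in the normal and 200 TPM in the diabetic library (log2 -0.31, -0.39 to -0.24). Uqcrh, the hinge protein that contacts cytochrome c1, measured 667 and 472 TPM (log2 -0.50, -0.55 to -0.45). Cyc1 and Uqcrh stayed within 1.5-fold on the deposited scale, but their counting intervals lay wholly under 0, and the site of Uqcrh lies 14 bases from the transcript end.

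Uqcrh and Uqcrb were among the most abundant of these genes, and the summed level of complex III was 2356 TPM in the normal and 2742 TPM in the diabetic library (log2 ratio 0.22, 0.20 to 0.24). The sign of this sum turned under every other scaling, to -0.03 after TMM scaling. The genes of this complex did not divide by role. On the deposited scale Uqcrfs1, Uqcrc1, Uqcrc2 and the small subunit Uqcrq were called higher. The redox subunit Cyc1 and the small subunits Uqcrb and Uqcrh were not.

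Complex IV, cytochrome c oxidase, reduces oxygen. Of its 8 genes 4 were higher and none was lower, with a median log2 ratio of 0.50 (TMM 0.25), and the summed level was 2572 TPM in the normal and 3317 TPM in the diabetic library (log2 ratio 0.37). Cox7a2 made up more than any other gene of this sum, and without it the log2 ratio was 0.60. After TMM scaling 3 of the 8 genes were higher and 1 lower, and the lower one was Cox4nb, which is no subunit. Cox4i1, the ubiquitous form of the largest nuclear subunit, measured 146 and 363 TPM (log2 1.32, 1.24 to 1.40). Cox6b1 measured 202 and 403 TPM (log2 1.00), and Cox5a 270 and 434 TPM (log2 0.68). Cox7b had 3 reads in the normal and 41 in the diabetic library, 0.29 and 3.04 TPM, and its log2 ratio of 3.39 has an interval of 1.73 to 5.71. Its tags were thus at the limit of detection, 3 reads, in the normal library.

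Cox7a2 and Cox6a1, the forms of 2 small subunits found outside heart and muscle, were close to their normal level. Cox7a2 had a log2 ratio of 0.17 (0.14 to 0.20), which turned to -0.08 after TMM scaling, and stood at rank 32 of all listed genes in the normal and rank 45 in the diabetic library. Cox6a1 measured 419 and 383 TPM (log2 -0.13, -0.19 to -0.07). The muscle forms Cox6a2, Cox7a1 and Cox8b were not among the listed genes. Cox5b, Cox6c, Cox7c and Cox8a were not listed either, so a missing row is not read here as absence from liver. Cox7a2l, described as a factor of supercomplexes of complexes III and IV, measured 54.6 and 68.03 TPM (log2 0.32, 0.16 to 0.47). Cox4nb, which is no subunit, had 21 reads in each library. Subunits that assemble into 1 enzyme thus ranged from -0.13 to 1.32 in log2 ratio among the genes above 10 TPM.

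Complex V makes ATP with a soluble F1 head on a membrane-bound Fo part. Of its 10 genes 6 were higher and 2 were lower, with a median log2 ratio of 0.73 (TMM 0.48), and the summed level was 2165 TPM in the normal and 3638 TPM in the diabetic library (log2 ratio 0.75, 0.73 to 0.77). After TMM scaling 4 of the 10 were higher and 3 lower. These counts include Atp5s on the higher and Atp5sl on the lower side, which are no subunits. All 4 listed F1 subunits were higher on the deposited scale, and 3 of the 4 after TMM scaling. Atp5a1, the alpha subunit, was the most abundant, with 551 and 988 TPM (log2 0.84, 0.80 to 0.89). Atp5b, the catalytic beta subunit, measured 247 and 425 TPM (log2 0.78). Of the central stalk, Atp5d (delta) measured 110 and 274 TPM (log2 1.32, 1.23 to 1.42) and Atp5e (epsilon) 438 and 785 TPM (log2 0.84). Atp5k, the e subunit of the membrane part, measured 201 and 321 TPM (log2 0.68).

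Atp5f1, the b subunit of the peripheral stalk, was lower, with 80.8 TPM in the normal and 51.6 TPM in the diabetic library, from 830 and 697 reads (log2 -0.65, -0.79 to -0.50). It was the only gene of the 53 that was lower by both the fold and the exact test of the reads. Its annotated transcripts differ in their last tag as well. A transcript of 456 bases ends with a tag that also occurs in the pseudogenes Gm12231 and Gm5983, and Gm12231 is listed with 7.20 and 3.41 TPM (log2 -1.08, -1.64 to -0.53), so the 2 rows moved in the same direction.

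The c-ring is encoded by 3 genes, Atp5g1, Atp5g2 and Atp5g3, whose mature proteins are identical, and 2 of them were listed. Atp5g3 measured 518 TPM in the normal and 774 TPM in the diabetic library (1.495-fold, log2 0.58, 0.53 to 0.63), just under the line. Atp5g1 measured 1.75 and 0.37 TPM, from 18 and 5 reads (log2 -2.24, -4.03 to -0.76). Their tags are set side by side, because the row of Atp5g1 depends on which transcript is counted.
Atp5g3, coding sequence and 3' untranslated region, chr2:73908592-73908611, minus strand: GATCttgtttgccatgtaac
Atp5g1, longest transcript, 3' untranslated region, chr11:96069259-96069278, minus strand: GATCcgatgcctcttctgtt
Atp5g1, shorter transcripts, coding sequence, chr11:96073558-96073577, minus strand: GATCaggagctggcattggc
The longest Atp5g1 transcript has 4715 bases, and the shorter ones that end with the last tag have at most 691. That last tag also occurs in the pseudogene transcript Gm10039, which is listed with 314 TPM in the normal and 485 TPM in the diabetic library (log2 0.63, 0.56 to 0.69). The low row of Atp5g1 is therefore uncertain. The row of the pseudogene was far more abundant and had a ratio close to that of Atp5g3. Atp5s and Atp5sl, which are no subunits, went apart, with 3.50 and 8.59 TPM (log2 1.30, 0.74 to 1.88) and 15.3 and 10.3 TPM (log2 -0.57, -0.91 to -0.23).

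**Figure D3:**
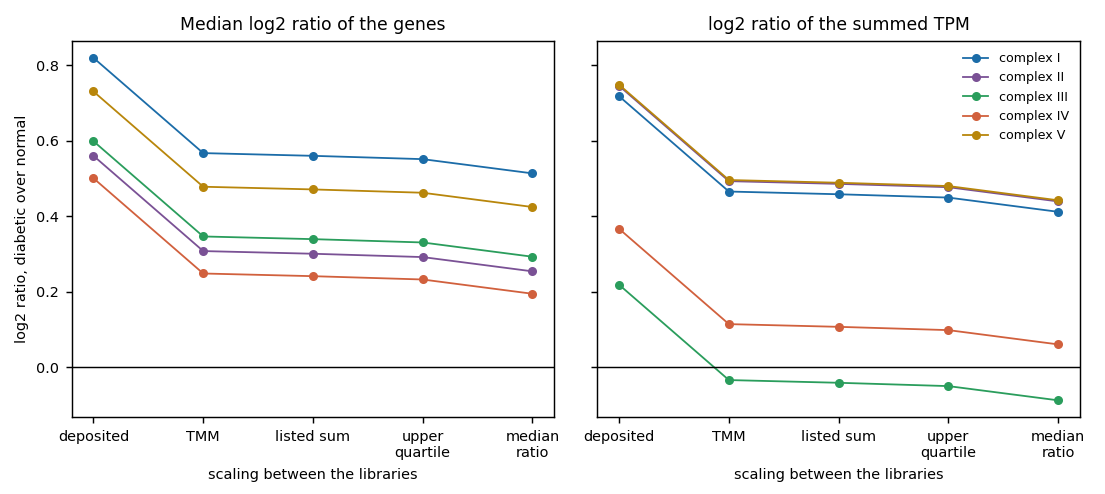
Median log2 ratio of the genes (left) and log2 ratio of the summed TPM (right) of each complex under the deposited scale and 4 other scalings of the libraries. All medians stay above 0, the sum of complex III falls below 0 under the 4 other scalings, and the order of the complexes is the same under each because a scaling moves all genes alike.

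The complexes can be compared as a description. By the median the order was I, V, III, II and IV, from 0.82 to 0.50, and by the summed level it was V, II, I, IV and III, from 0.75 to 0.22. The order of the medians depended on genes that are no subunits. With structural subunits alone the medians of complexes I to V were 0.75, 0.56, 0.60, 0.68 and 0.73. Complex IV, then counted without Cox4nb, was no longer last. The intervals of the summed ratios of complexes I, II and V overlapped, and those of III and IV lay apart from them and from each other. On the deposited scale the listed complex I core, Sdha and the listed F1 subunits of complex V were all called higher. After TMM scaling Sdha, 4 of the 5 core subunits and 3 of the 4 F1 subunits remained so. In complex III, redox and other subunits stood on both sides of the line on the deposited scale. Genes of 1 complex differed from each other by more than the complexes did, as in complex III with log2 ratios from -0.50 to 1.06.

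Genes that serve the same process outside the complexes were counted from lists made by function. Of all listed genes 34.4% were called higher and 15.3% lower, and 24% and 23.6% after TMM scaling. Among 10 listed assembly factors of complexes I, II, III and V, 5 were higher and 0 lower (median log2 ratio 0.54). The list includes Atpif1, which is no assembly factor and was called neither higher nor lower. Foxred1, a complex I factor, measured 6.62 and 18.6 TPM and Tmem70, a complex V factor, 26.2 and 22.7 TPM. Among 11 factors of complex IV assembly and copper delivery, 5 were higher and 0 lower (median 0.42). Cox19 measured 38.6 and 85.6 TPM and Cox18 24.3 and 19.8 TPM. Of these 5 higher genes, Sco1 and Cox11 had counting intervals that include 0. After TMM scaling 3 of the 11 were higher and 0 lower, and 4 of the 10 other assembly factors were higher and 0 lower. Both medians of the assembly genes lay between that of all listed genes and those of complexes I and V.

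Genes that feed electrons to the chain or make ubiquinone were more often called higher than lower. Of 7 electron carriers and dehydrogenases, which include Suox, not linked to ubiquinone, 4 were higher and 0 lower (median 0.96, TMM 4 higher and 0 lower). Prodh, which oxidises proline, measured 87.3 and 286 TPM, and Etfa, which takes electrons from fatty acid oxidation, 257 and 331 TPM. Of 8 genes of coenzyme Q synthesis 6 were higher and 0 lower (median 0.97, TMM 5 higher and 1 lower). Coq10b, which binds coenzyme Q and is no enzyme of its synthesis, measured 3.41 and 29.1 TPM. Coq5, a methyltransferase of the pathway, measured 14.6 and 10.1 TPM. Of 13 TCA cycle genes 8 were higher and 0 lower (median 0.87, TMM 7 higher and 0 lower). Idh2, the NADP-dependent isocitrate dehydrogenase, measured 43.3 and 197 TPM.

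Of 52 mitochondrial ribosomal protein genes 18 were higher and 2 lower, with a median log2 ratio of 0.41. Their share called higher was close to the 34.4% of all listed genes. Mrps17 measured 28.4 and 89.1 TPM and Mrpl20 37.9 and 16.5 TPM. Of 11 subunits of the vacuolar proton ATPase, a related pump of another membrane, 6 were higher and 0 lower (median 0.64), with Atp6v1e1 at 50.4 and 180 TPM and Atp6v0b at 48.6 and 38.4 TPM. A pump outside mitochondria was thus not far from complex V in its counts. Of 9 transcription factors and coactivators of respiratory genes 2 were higher and 1 lower (median 0.15). After TMM scaling the median was -0.11, with 2 higher and 3 lower. Ppara, a receptor that activates fatty acid oxidation, measured 36.6 and 82.1 TPM and Yy1 17.6 and 13.6 TPM. Slc25a4, an ATP and ADP exchanger, was the 1 listed gene of 4 in its list, with 6.62 and 6.37 TPM.

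**Figure D4:**
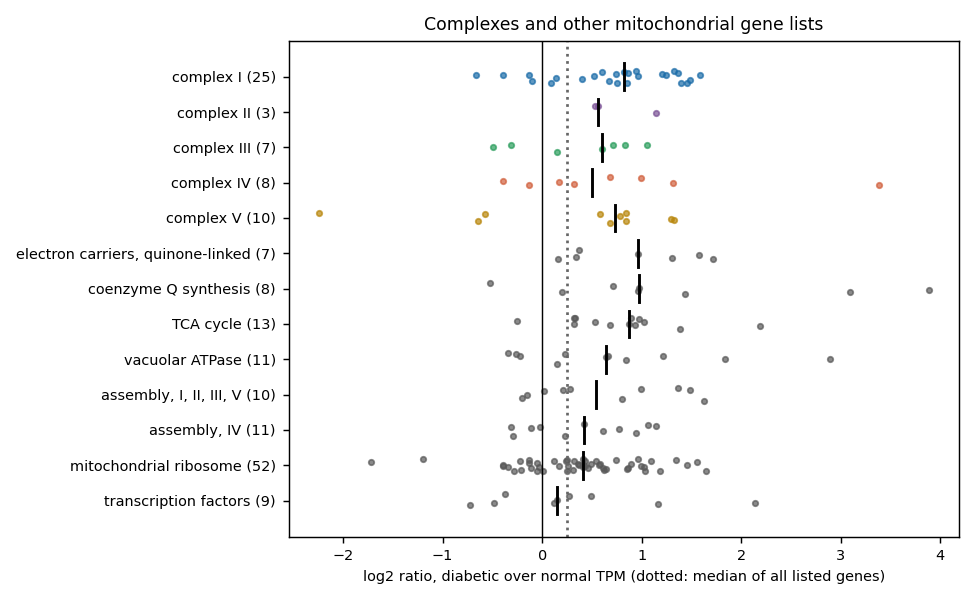
log2 ratio of each gene (points) and the median (bar) for the 5 complexes and 8 other lists, with the number of genes in brackets. The dotted line is the median of all listed genes (0.25). Complexes I and V, coenzyme Q synthesis, the TCA cycle and the electron carriers and dehydrogenases have medians above 0.70.

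The position of the last DpnII site went with the ratio over all listed genes. The median log2 ratio was -0.06 for the 1293 genes with the site under 100 bases from the transcript end, 0.05 from 100 to under 200 bases (1311 genes), 0.24 from 200 to under 400 bases (2052 genes) and 0.44 at 400 bases or more (3453 genes). The 53 genes had medians of 0.75 (13 genes), 0.35 (8 genes), 0.82 (19 genes) and 0.84 (13 genes) in the same classes, each above that of all listed genes. Spearman's rho of distance and log2 ratio was 0.24 over 8109 genes and 0.02 over the 53 genes, all from the same 2 libraries. Where the mean level reached 10 TPM it was 0.32 over 3535 genes and 0.23 over 45 of the 53. Measured against the median of all genes of the same class, 23 of the 53 genes were past 1.5-fold upwards and 4 downwards, beside 23.3% and 22.2% of the 8109 genes, with a median of 0.48. What makes the ratio move with the site was not tested.

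**Figure D5:**
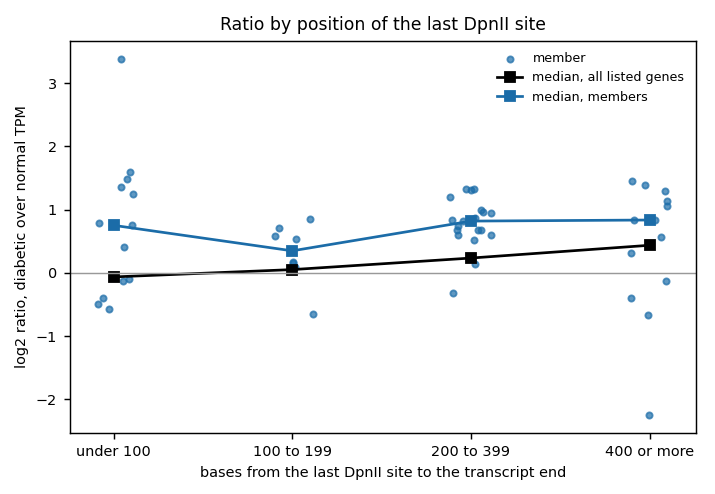
log2 ratio of the 53 genes (blue points) by the distance from the last DpnII site to the transcript end, in 4 classes in bases, with medians of the 53 genes (blue squares) and of all listed genes (black squares). The black medians run from -0.06 to 0.44, and the blue median is above the black one in each class.

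Promoters of 40 of the 53 genes were found in a RefSeq table (GRCm38), as 250 bases before and 50 after the start. They were searched on both strands for exact motifs of factors known to control respiratory genes. The full palindromic site of NRF1 was found in 3 of 40 promoters (7.5%), against 1.07% of all promoters in the table and 2.31% of those of listed genes. The YY1 motif was found in 3 of 40 (7.5%, against 0.995% and 2.46%), the ERR motif (TCAAGGTCA) in 2 of 40 (5%, against 0.466% and 0.362%) and the GABPA motif (CCGGAAGT) in 1 of 40 (2.5%, against 4.31% and 9.68%). A match is a description of the letters and not a bound site. The stretches of 2 of the genes with an NRF1 match are shown because their levels went differently, with the motif in capitals.
Atp5k, chr5:108434415-108434474, minus strand: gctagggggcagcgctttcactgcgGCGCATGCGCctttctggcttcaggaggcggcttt
Cox6a1, chr5:115349086-115349145, minus strand: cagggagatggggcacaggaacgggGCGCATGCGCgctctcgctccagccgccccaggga
Atp5k had a log2 ratio of 0.68 and Cox6a1 of -0.13. On the deposited scale the same letters thus stood before a gene called higher and one that was not. After TMM scaling (log2 0.43 and -0.38) neither was called higher. The motif ends 40 bases before the start of Atp5k and 152 bases before that of Cox6a1. The NRF1 motif was present in 2 of the 24 matched genes called higher and in 1 of the 13 within 1.5-fold.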

How the data were processed

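The deposited values, which the authors call TPM, are tags of a gene per 1000000 clean tags (RPM), rounded to 2 decimals, with 0.01 written for no tag and genes with a mean under 1 left out. The authors purified poly(A) RNA, cut the cDNA with DpnII, and counted the sequenced tags on RefSeq genes. The submitters' processing notes name mm9, and the aligner is not given in the sources used here. No other sample column was present (0).

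Reads were recovered from the steps of the values (tolerance 0.1 read, whole in 8513 of 8513 and 8536 of 8537 values). 3 reads correspond to 0.292 TPM in the normal and 0.222 TPM in the diabetic library. Fold changes used the deposited values, called at 1.5-fold. Intervals are 95% Clopper-Pearson intervals. The exact binomial test was adjusted by Benjamini-Hochberg over 8551 genes. Alternatives were 4 scalings, pseudocounts of 0.1 and 1 TPM, minimum means of 5 and 10 TPM, a 2-fold line, the FDR, and regrouped members.

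The members and lists were chosen with earlier results of these data known. By rule, the text names, per complex, the 2 most abundant genes and the 2 highest and 2 lowest ratios with a mean of at least 10 TPM, all Sdh genes, the complex I core, alternative forms of a subunit, and, per list, the highest and lowest ratio with a mean of at least 10 TPM. Other members named were chosen after their values were seen. The single values of 2 genes are not reported here, and these genes enter only counts, medians and sums. In simulated reads of 8551 genes for the diabetic and normal library, 183 of 200 genes raised 3-fold were called higher by fold and FDR, and 0 of 8351 unchanged genes in either direction. By 1.5-fold alone, 200 of the 200 and 262 unchanged genes were called higher and 246 unchanged genes lower. Both simulated libraries were drawn from 1 shared profile with counting error alone. Differences between animals or library preparations were not simulated, so these counts give no rate of false calls for the real libraries. The computation ran in Python 3.11.15 with scipy 1.17.1, pandas 2.3.3, numpy 2.4.6 and matplotlib 3.10.9.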

Additional observations from a re-analysis of the deposited data

Results flagged for a closer look

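The symbol rule missed 4 genes of oxidative phosphorylation that the table lists under older symbols, and their signal was outside the counts above. Uqcr10, a small subunit of complex III listed as 1110020P15Rik, measured 55.7 TPM in the normal and 138 TPM in the diabetic library (log2 1.31, 1.17 to 1.45). Ndufa11b, listed as Gm4943, measured 43.1 and 124 TPM (log2 1.52, 1.37 to 1.68). The complex I assembly factor Ndufaf8, listed as 1810043H04Rik, measured 109 and 147 TPM (log2 0.44, 0.33 to 0.55). The assembly factor Ndufaf6, listed as 2310030N02Rik, measured 3.99 and 6.59 TPM (log2 0.72, 0.17 to 1.29). All 4 were above the limit that a count of 0 allows in both libraries, and 3 of them were at least 1.5-fold higher. Only rows with a higher value in the diabetic library were taken up here, so their shared direction follows from that choice. The row left out was the pseudogene Gm12231, which was lower (7.20 and 3.41 TPM).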

How the results depend on the processing

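No paired analysis was possible because each group has 1 library, and no library could be left out for the same reason. The reads limit the rare genes most, as for Cox7b and Atp5g1, whose intervals span over 3 units of log2. Of the summary values recomputed under the alternatives, 150 kept their sign within counting error or, for counts, within 1.5 times, 117 moved further and 4 turned. The 4 scalings shift all genes alike, so what they move follows from that shift, and a 2-fold line, a minimum mean or an FDR calls fewer genes by construction. The cause of the other changes was not tested.

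With scaling to the summed listed genes, 19 members were higher and 7 lower, with a median log2 ratio of 0.45. The medians of complexes I to V were 0.56, 0.30, 0.34, 0.24 and 0.47, and the log2 ratios of their sums 0.46, 0.49, -0.041, 0.11 and 0.49. Complex III had 1 higher and 1 lower, complex V 2 higher, complex I 2 lower and complex IV 1 lower, and 2044 of all listed genes were lower. With TMM scaling, 21 members were higher and 7 lower, with a median of 0.46. The medians of complexes I to V were 0.57, 0.31, 0.35, 0.25 and 0.48, and their sums 0.47, 0.49, -0.034, 0.11 and 0.50. Complex III had 1 higher and 1 lower, complex I 2 lower and complex IV 1 lower, and 2022 of all listed genes were lower. With median-ratio scaling, 17 members were higher and 8 lower, with a median of 0.40. The medians were 0.51, 0.25, 0.29, 0.20 and 0.42, and the sums 0.41, 0.44, -0.087, 0.061 and 0.44. Complex I had 10 higher and 2 lower, complex III 1 higher and 2 lower, complex IV 1 lower and complex V 2 higher, and 1873 of all listed genes were higher and 2189 lower. With upper-quartile scaling, 18 members were higher and 7 lower, with a median of 0.44. The medians were 0.55, 0.29, 0.33, 0.23 and 0.46, and the sums 0.45, 0.48, -0.050, 0.10 and 0.48. Complex I had 11 higher and 2 lower, complex III 1 higher and 1 lower, complex IV 1 lower and complex V 2 higher, and 2076 of all listed genes were lower.

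At a 2-fold line, 14 members were higher and 1 lower, with 8 higher and 0 lower in complex I, 1 higher in complex III, 2 in complex IV and 2 higher and 1 lower in complex V, and 1589 of all listed genes were higher and 582 lower. For genes above a mean of 5 TPM, the median was 0.74 for all members and 0.78 for complex V, which had 1 lower, and 1773 listed genes were higher and 658 lower. For genes above a mean of 10 TPM, 1 member was lower, in complex V, 0 in complex I, and 1285 listed genes were higher and 426 lower. With the FDR, 1 member was lower, in complex V, 0 in complex I, and 1955 listed genes were higher and 700 lower. A pseudocount of 1 TPM left 0 lower in complex I. With structural subunits alone, the median was 0.70 for all members, 0.75 for complex I and 0.68 for complex IV. With Ndufa4 counted in complex IV its median was 0.32. Without the most abundant member, the sums of complexes I, II, IV and V had log2 ratios of 0.69, 0.95, 0.60 and 0.71. Relative to genes of the same site distance, an alternative chosen after seeing the data, the median was 0.48 for all members and 0.63, 0.48, 0.36, 0.28 and 0.49 for complexes I to V, with 2 higher in complex III and 1 lower in complex IV, and 1889 listed genes were higher and 1798 lower.

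Of the 34 members named by rule, each scaling moved 24 by more than counting error and changed the sign of 2, Uqcrb and Cox7a2.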

Other observations

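Tfam, which packages and transcribes mitochondrial DNA, measured 1.75 TPM in the normal and 7.70 TPM in the diabetic library, from 18 and 104 reads. Nubpl, which delivers iron-sulfur clusters to complex I, measured 4.38 and 13.6 TPM, and Mdh2, the mitochondrial malate dehydrogenase, 74.7 and 195 TPM. Etfdh, which passes electrons of fatty acid oxidation to ubiquinone, measured 197 and 589 TPM. Tfam, Nubpl, Mdh2 and Etfdh were all chosen after their values were seen, each from the higher side of its list. Counts of the whole lists are given above. These values have no replicate check.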
